A study of Mus musculus with 8 samples.

Results

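The subunits of the machinery that cuts the 3′ end of a pre-mRNA before a poly(A) tail is added were examined in mouse embryonic stem (ES) cells. The set holds 10 genes, taken from a table of genes and transposable elements by symbol alone: Cpsf1, Cpsf2, Cpsf3 and Cpsf4 of the cleavage and polyadenylation specificity factor (CPSF), Nudt21, Cpsf6 and Cpsf7 of cleavage factor I (CFIm), and Cstf1, Cstf2 and Cstf3 of the cleavage stimulation factor (CstF). All 10 symbols had a row among the 17597 genes of the table, whose other 1097 rows are transposable element subfamilies. RNA was sequenced from 8 libraries of METTL3 degron cells, 4 untreated and 4 given dTAG-13 for 26 hours. Within a group, 2 libraries came from clone C3 and 2 from clone H5. In every library METTL3, which writes N6-methyladenosine (m6A) on RNA, carried an FKBP12 F36V tag at its C terminus, and dTAG-13 sends a protein with this tag for degradation. All cells had a Cast x 129S background, a TetOn promoter in place of that of endogenous Xist, no doxycycline, and mitomycin-inactivated fibroblasts as feeders in medium with LIF. The labels place the TetOn promoter on the 129S allele whereas the study's methods place it on the castaneus X chromosome for this line, and the labels give total RNA as the molecule beside an extraction text for chromatin RNA.

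The measurement used was the authors' mean count, a gene's read count after division by size factors, averaged over untreated and dTAG-13 libraries together. It is a single value per gene, without a spread, so the levels below describe ES cells of both groups pooled, no difference between the groups is reported, and no test was run. Neighbouring levels cannot be separated by replicate error. In bulk RNA, fewer cells with a transcript and less of it per cell cannot be told apart. Over all genes the mean counts summed to 14573411.

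Cleavage at a poly(A) site begins when CPSF binds the hexamer written AATAAA in DNA letters, usually a short way upstream of the cut. Within CPSF, Cpsf4 and its partner Wdr33 contact the hexamer, Cpsf3 is the endonuclease, Cpsf2 is its catalytically inactive relative and Cpsf1 is the scaffold. CFIm is built from Nudt21, which binds TGTA motifs upstream of the site, together with Cpsf6 or Cpsf7, and its abundance is known to influence which of several poly(A) sites a gene uses. CstF binds the downstream GT-rich element through Cstf2, with Cstf3 as its scaffold and Cstf1 as a WD-repeat subunit. Much m6A of mRNA lies in long last exons and 3′ untranslated regions, a stretch that can also hold alternative poly(A) sites.

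The genes of the machinery are themselves its substrates. The last 30 bases of their longest complete coding transcripts are therefore shown for a subunit of each complex with the canonical hexamer. They are also shown for the subunit with the common variant, and for the endonuclease, where the end of that transcript holds neither. Other annotated ends of these genes were not searched. Capitals mark the hexamer AATAAA or ATTAAA, of which Cpsf2 has 2 overlapping copies, and the sequences are those of the sense strand in GRCm38, taken from GENCODE M21.
Cpsf2: tatttcgctAATAAATAAAagatgctgagc
Nudt21: gttatttcAATAAAaatatttaaaactgaa
Cstf2: ctgtcgtggattcAATAAAtattttaaaag
Cpsf4: ctatgaggttgATTAAAaagcttgtttttt
Cpsf3: actggcaaatctgagttttgagttgaatgc
These ends lie in the last exons of their genes, at chr12:102006395-102006424 on the plus strand for Cpsf2, chr8:94015496-94015525 on the minus strand for Nudt21, chrX:134086790-134086819 on the plus strand for Cstf2, chr5:145182011-145182040 on the plus strand for Cpsf4 and chr12:21315027-21315056 on the plus strand for Cpsf3.

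All 10 subunits were expressed above the median gene. Their mean counts ran from 979 for Cpsf7 to 5936 for Cpsf2 against a median of 170.4 over all genes, and together they summed to 27327, or 0.188% of the gene total. The median subunit stood at the 89.3rd percentile of the genes by mean count, and single subunits stood between 79.0 and 97.8. Since a longer transcript yields more reads, ratios between genes were taken only after division by the length of the longest annotated transcript in kb, whereas ranks and percentiles are of the undivided mean count unless given per kb. On this scale the subunits stood between the 77.8th and 93.8th percentiles, again all above the median, which was 52.7 per kb.

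**Figure D1:**
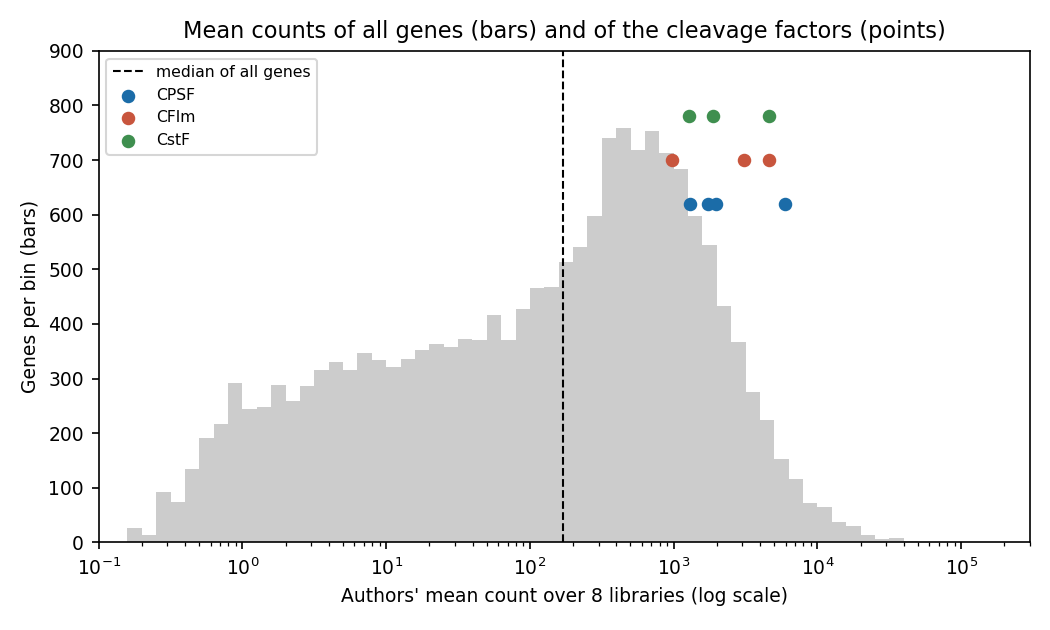
Histogram of the authors' mean count over 8 libraries (log scale) for the genes of the table, with the 10 cleavage factors drawn as points on rows of their own by complex and the median of all genes, 170.4, as a dashed line. The points start at 979 and end at 5936, all to the right of the line.

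Within CPSF, Cpsf2 had the highest level per kb of all 10 subunits. Cpsf2, at chr12:101975988-102006424, had a mean count of 5936, the 385th highest of the genes, and 1036 per kb. Cpsf3, the endonuclease, lies on the same chromosome at chr12:21285391-21315056 and had a mean count of 1963 and 786 per kb. The scaffold Cpsf1, at chr15:76595803-76607591, reached 1740.2 as a mean count and 385 per kb. The zinc finger subunit Cpsf4, at chr5:145167213-145182041, reached 1301 and 438 per kb. The level per kb of the inactive relative Cpsf2 was thus 1.32 times that of the endonuclease Cpsf3 and 2.69 times that of the scaffold. The first of these ratios turned over with the length chosen, from 0.455 with the median coding transcript to 2.78 with the union of all exons, because annotated Cpsf3 transcripts differ in length while Cpsf2 has 1 annotated transcript. The ratio to Cpsf1 stayed between 2.62 and 3.35 with each of the 4 lengths tried.

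CPSF has further subunits that were not members of the set. Wdr33, the other subunit that contacts the hexamer, had 519 per kb, Fip1l1, which helps recruit poly(A) polymerase, 346 per kb and the scaffold Sympk 245 per kb. With the longest transcript these levels lay below those of Cpsf2 and Cpsf3, and Wdr33 was above both Cpsf1 and Cpsf4. Cpsf4l, a paralog of Cpsf4, had a mean count of 569.9 and 414 per kb, against 438 per kb for Cpsf4. These levels used longest transcripts of 1375 bases for Cpsf4l and 2971 bases for Cpsf4, and no other length is given for Cpsf4l. With the longest complete coding transcript Cpsf4 stood at 741 per kb, since its longest annotated transcript is a retained-intron model. The coding sequences of the paralogs were 68.2% identical over 677 aligned bases and shared 0 windows of a read's length, 81 bases, so reads of the 2 genes can be placed apart.

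In CFIm the larger subunits were unequal. Cpsf6, at chr10:117344673-117380015, had a mean count of 4592 and 704 per kb, whereas Cpsf7, at chr19:10525266-10547653, had 979 and 279.7 per kb, the lowest level per kb among the 10. Cpsf6 exceeded Cpsf7 2.52 times per kb, and between 2.52 and 3.73 times over the 4 lengths. Nudt21, which pairs with either of them, lies at chr8:94015496-94037031 and had a mean count of 3066 and 612 per kb. Its level was 0.622 times the sum of Cpsf6 and Cpsf7 per kb, a ratio that ranged from 0.622 to 1.26 with the length. Of the 81-base windows in Nudt21 transcripts, 604 of 5421 (11.1%) also occurred in Gm7488. Read pairs that lie wholly in those windows may not align uniquely, so the Nudt21 count may be too low. A pair with a mate elsewhere can still align uniquely. No window of Cpsf6 was shared with another gene. In Cpsf7 1.64% of windows were, with Sdhaf2 and Tmem216, neighbours that overlap 4.10% of its exon bases on the opposite strand.

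The CstF subunits lay closer together. The RNA-binding Cstf2, an X-linked gene at chrX:134059187-134086819, had a mean count of 4592 and 611 per kb. Cstf1, at chr2:172370681-172382448, had 1869.6 and 542 per kb. Cstf3, at chr2:104590523-104665429, had 1288 and 457 per kb. The highest of the 3 per kb was 1.34 times the lowest, compared with 2.69 in CPSF and 2.52 in CFIm. With the union of exons the CstF span was 2.44 and still the smallest, against 3.35 and 3.76, and with the median coding transcript the 3 spans were 5.75, 5.77 and 5.97 in the order CstF, CPSF and CFIm. The longest annotated Cstf2 transcript, of 7514 bases, is a retained-intron model, and its longest complete coding transcript has 4502 bases. With the latter, Cstf2 stood at 1019.9 per kb, just under Cpsf2, and the CstF span at 2.23.

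Cstf2t, an autosomal gene that arose as a retrocopy of Cstf2 and encodes a variant of the same subunit, was also expressed. It had a mean count of 1482 and 350.2 per kb, so Cstf2 exceeded it 1.75 times per kb, with a range of 1.43 to 7.51 over the 4 lengths. Cstf2 and Cstf2t together reached 2.10 times the Cstf3 level per kb, and 2.997 to 6.52 times with the other 3 lengths. Cstf2 alone reached 1.34 times, and 2.23 to 5.75 times with those lengths. Their coding sequences were 75.1% identical over 1723 aligned bases and shared no 81-base window. Cstf2 overlapped Nox1 on the opposite strand over 4.35% of its exon bases. Such overlap with other genes was 4.10% in Cpsf7, 3.71% in Cpsf3, 2.56% in Cpsf2 and 0.248% in Cpsf1. Whether strand was used in the counting is uncertain, for these subunits alike.

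**Figure D2:**
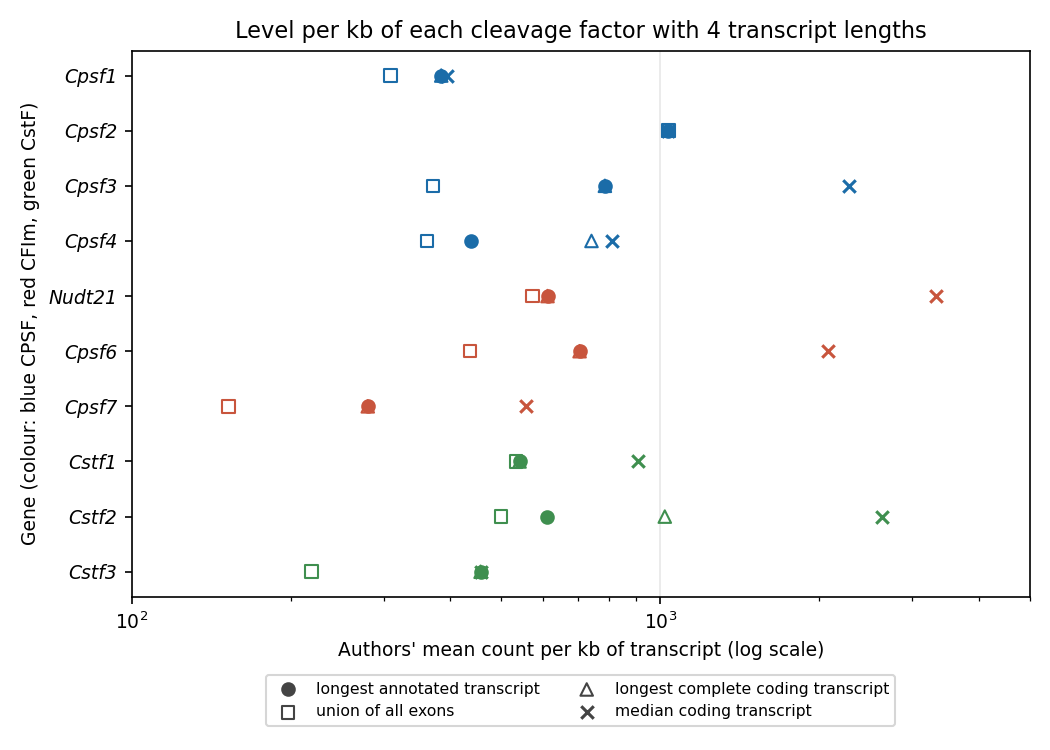
Authors' mean count per kb (log scale) of each cleavage factor, with one symbol for each of the 4 transcript lengths used as divisor and colour for the complex. Cpsf2 keeps 1036 with every length, whereas Nudt21 moves between 573 and 3318 and Cstf2 between 500.2 and 2630.

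From highest to lowest level per kb of the longest transcript, the order was Cpsf2, Cpsf3, Cpsf6, Nudt21, Cstf2, Cstf1, Cstf3, Cpsf4, Cpsf1 and Cpsf7. The ends of the order were 3.70 times apart. Nudt21 and Cstf2 were next to each other at 612 and 611 per kb, and Cpsf4 and Cstf3 at 438 and 457. With the union of exons Cpsf2 stayed first and Cpsf7 last and the other 8 changed place. With the median coding transcript Nudt21 was first at 3318 per kb and Cpsf1 last at 395, but that median includes annotated coding transcripts that are incomplete and short.

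Of 13 further genes of cleavage and polyadenylation, 12 were above the gene median both by mean count and per kb, with a median percentile by mean count of 85.7 against 89.3 for the 10 subunits. The poly(A) polymerase Papola had 1774 per kb and the nuclear poly(A) binding protein Pabpn1 1572 per kb, both above Cpsf2 on the longest transcript. The one below on both scales was Papolb, a poly(A) polymerase known from the testis, with a mean count of 64.8. Pcf11, which links cleavage to termination, had 319 per kb and its partner Clp1 386 per kb. The 7 listed factors of histone pre-mRNA 3′ end formation, a reaction that uses the same endonuclease, were all above the median by mean count, at a median percentile of 85.8. Per kb 6 of the 7 were above, and Lsm11 was below at 40.6 per kb.

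The canonical hexamer closed most subunit transcripts, as it did most coding transcripts of the table. AATAAA was found in the last 50 bases on the sense strand in 7 of 10 subunits and in 10397 of 16324 genes with a complete coding transcript (63.7%). ATTAAA without AATAAA was found in Cpsf4 alone among the subunits and in 14.5% of all, and neither hexamer in Cpsf1 and Cpsf3, as in 21.8% of all. The distance from the first base of AATAAA, taken at the copy nearest the end, to the last base of the transcript was 17 bases in Cpsf2 and Cstf2, 18 in Cpsf6, 21 in Cpsf7, 22 in Nudt21 and 25 in Cstf1 and Cstf3. The median over all genes was 23 bases, with quartiles of 21 and 27. Cstf2 and Cpsf6 thus carried their only copy within the last 50 bases closer to the end than the first quartile of all genes. So did Cpsf2 with its nearest copy. In Cpsf2 the overlapping second copy began 21 bases from the end. More than 1 copy in the last 50 bases was found in 4.83% of all genes, and bases further upstream were not searched. TGTA, the motif of CFIm, occurred in the last 100 bases of the sense strand in 7 of 10 subunits and in 53.6% of all genes, with 2 copies in Cpsf1, Cpsf3 and Cstf3, 1 in Cpsf6, Cpsf7, Cstf2 and Nudt21, and 0 in Cpsf2, Cpsf4 and Cstf1. These matches describe letters in 1 annotated end per gene and show neither use of a site nor binding.

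**Figure D3:**
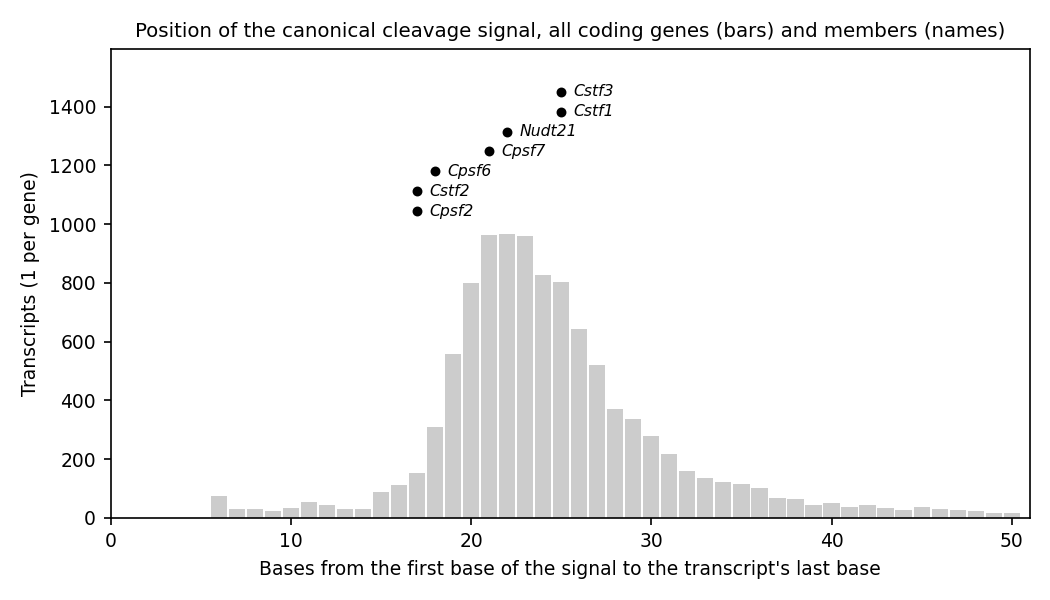
Distance in bases from the first base of the AATAAA copy nearest the end to the transcript's last base, as bars for all genes with the hexamer in the last 50 bases and as named points for the 7 cleavage factors that have it. The points fall between 17 and 25 bases, and the median of all genes is 23.

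The subunits differed widely in the length of the 3′ untranslated region. Cpsf6 had a 3′ untranslated region of 4798 bases, at the 95.5th percentile of coding genes, Nudt21 one of 4187 bases and Cpsf2 one of 3203 bases. Cstf2 followed with 2591 bases, Cpsf7 with 1967 and Cstf1 with 1829. At the other extreme Cpsf1 had 79 bases, at the 3.69th percentile, Cpsf3 307 and Cstf3 510, and Cpsf4 had 836. The median of the 10 was 1898 bases against 1039.5 for all coding genes. More than 1 annotated 3′ end was present in 6 of 10 subunits and in 40.5% of all genes. Ends were counted over all complete coding transcripts of a gene, and whether they lie in the untranslated regions given here was not examined. Cpsf6 and Cstf2 had 3 annotated ends, Cpsf3, Cpsf4, Cpsf7 and Nudt21 had 2, and the remaining 4 had 1. Cpsf2 is among these 4, but it has only 1 annotated transcript and so could show no more than 1 end.

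The 3 genes with the shortest untranslated regions had the most exons. Cpsf1 had 37 exons, the longest of 257 bases, and encodes 1441 residues. Cpsf3 and Cstf3 had 18 and 21 exons, none longer than 409 and 713 bases. In Nudt21, by contrast, 7 exons encode 227 residues and the longest exon has 4209 bases, and in Cpsf6 the longest of 10 exons has 4795 bases. The core m6A motif, searched as GGACT on the sense strand of the transcript, had its highest density in Cpsf4, with 5 copies or 2.85 per kb, and in Cpsf7, with 8 copies or 2.29 per kb. Nudt21 also had 8 copies, at 1.60 per kb, and Cstf1 4 at 1.16 per kb. Cpsf6 had 1 copy in 6526 bases, or 0.153 per kb, so the transcripts of the alternative partners Cpsf6 and Cpsf7 stood far apart in this measure. The median of the 10 was 0.704 per kb and that of all coding genes 1.05. The study marks m6A motifs on Xist as the wider DRACH pattern, which includes GGACT. Other DRACH sequences were not counted, so few copies of GGACT do not mean few sites that can be methylated. A match does not show whether methylation was present.

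**Figure D4:**
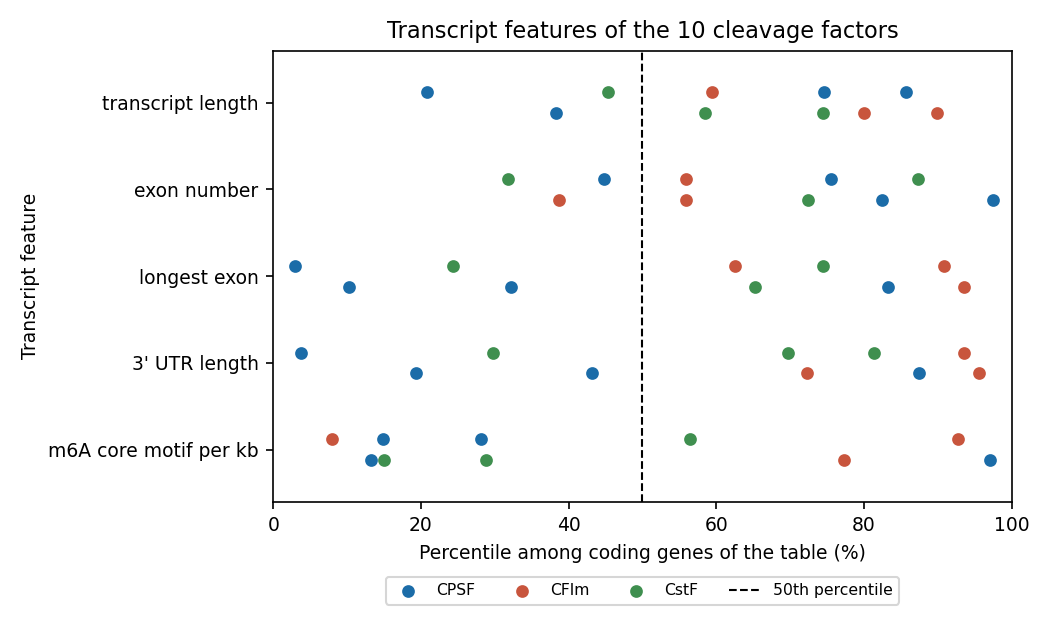
Percentile of each cleavage factor among coding genes for 5 features of its longest complete coding transcript, with points coloured by complex and a dashed line at the 50th percentile. For 3′ UTR length the points run from 3.69 for Cpsf1 to 95.5 for Cpsf6, and for the m6A core motif per kb they run from Cpsf6 at the low end to 97.1 for Cpsf4.

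The labelled cell type was checked by mean count and per kb. All 10 listed ES cell markers were above the gene median on both scales, with mean counts from 1415 to 11934. Of 10 fibroblast markers 9 had a row, with mean counts from 0.768 to 116, all below the gene median of 170.4. Per kb, 2 of the 9 were above the median of 52.7, S100a4 at 99.7 and Thy1 at 66.8. Mettl3 itself had a mean count of 684, at the 72.6th percentile. The degron removes the protein, so this RNA level does not check the treatment.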

How the data were processed

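The authors removed ribosomal RNA reads with bowtie2, aligned the remaining 81-base read pairs with STAR to an N-masked mm10 genome, kept unique alignments, removed duplicates with Picard and ran TEtranscripts, which counts genes and transposable elements and calls DESeq2. The deposited signal column is the mean over 8 libraries of counts divided by size factors, and it was the only column used. The other 5 columns hold the authors' own comparison of the groups (log2 fold change, its standard error, statistic, p-value and adjusted p-value) and were not used. They were therefore neither printed nor tested. Depth per library was not analysed here, and the precision of a mean cannot be stated. The software's default counts without regard to strand, but a word in the title of the table can be read as a strand setting, so this is uncertain.

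Symbols were matched to GENCODE M21 (GRCm38, the build of mm10): 16660 directly and 721 by an older symbol, 98.8% of 17597 genes. Counts per kb used the longest annotated transcript. Motifs, exons and untranslated regions were read from the longest complete coding transcript. Distinct ends were more than 24 bases apart. Shared windows were exact 81-base matches on either strand. Coding sequences were aligned globally with Biopython 1.88. The steps ran in Python 3.11.15. Only the functions for percentiles, interval overlap, signal position, distinct ends and shared windows were tested on made-up input.

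All 10 subunits were named, with partners sharing a complex and Mettl3. Papola, Pabpn1, Papolb, Lsm11, S100a4 and Thy1 were added after their values were seen. The subunits, gene lists and alternatives were chosen with earlier results of these data known.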

Additional observations from a re-analysis of the deposited data

How the results depend on the processing

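All 10 subunits stayed above the gene median among the 13590 genes whose mean count reached 10 and on the scale per kb. The subunits' percentiles ran from 72.9 to 97.2 with that minimum, from 77.8 to 97.7 among protein-coding genes and from 77.8 to 93.8 per kb. With transposable elements in the denominator the summed share was 0.168% in place of 0.188%. The ratio of the highest to the lowest subunit per kb, 3.70 with the longest transcript, was 6.79 with the union of exons, 8.41 with the median coding transcript and again 3.70 with the longest complete coding transcript, a length chosen after seeing the data. In the order per kb, 2, 1 and 3 of the 10 subunits kept their place under these lengths. No paired analysis was possible because the column used holds 1 mean over all libraries, and leaving out single libraries was not run for the same reason. The depth of single libraries was not analysed here, so no counting interval could be given.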
